A study of Mus musculus with 15 samples.

Results

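Cultured mouse spermatogonial stem cells, which renew the germline of the testis, were compared at 8 h and at 4 h after their growth factors had been given back. The comparison rests on the 3 arrays titled as 8 h of replacement and the 3 titled as 4 h. These are 6 of the 15 arrays in the series, taken by title. The comparison was chosen with a similar fibroblast RNA share in both groups already known. The cultures came from C57BL/6 males aged 6 days, were enriched for stem cells, and had been kept in a defined serum-free medium with GDNF (glial cell line-derived neurotrophic factor), its soluble co-receptor GFRalpha1 and bFGF. Both groups first went without GDNF and GFRalpha1 for 18 h and then had both back, for 8 h or for 4 h, and no genotype, allele or other agent sets them apart. The other groups, used here only for values side by side, were cultures at 2 h of replacement, cultures at the end of the 18 h without the factors, and cultures maintained with the factors throughout, with 3 arrays each. No labelled group stayed without them for longer, and none was handled alike and left without them, so more time with the factors cannot be told apart from more time in culture or after handling. Whether the replicates were separate cultures is not stated, so the p-values measure only the spread between arrays, which may be technical. In bulk RNA such as this, fewer cells of a type and less RNA per cell cannot be told apart.

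GDNF binds GFRalpha1 on the stem cell and the pair engages the receptor tyrosine kinase RET, which signals through SRC family kinases, PI3K and AKT, and RAS and ERK. Within minutes to hours such a signal raises immediate-early transcription factors and the phosphatases and adaptors that damp ERK again, and later it reaches the genes of self-renewal, among them Bcl6b and Etv5. Growth factor signalling through AKT also feeds lipid synthesis through the sterol-sensing transcription factor SREBP2, which is held in the endoplasmic reticulum when membranes carry enough cholesterol.

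Each array gave a MAS5 signal, an intensity in arbitrary units, for 45101 probe sets, and every array had been scaled to a trimmed mean of 150. Median signal was 53.2, 50.9 and 55.8 on the 8 h arrays, against 46.9, 43.3 and 50.3 on the 4 h arrays, so each 8 h array lay above each 4 h array. The 12 germ cell markers were all above background. Their summed signal was 17073, 18231 and 16375 at 8 h, against 17841, 19338 and 18360 at 4 h, and the groups overlapped. Fibroblast markers, 22 of 28 tested, summed to 19148, 23856 and 20071 at 8 h, against 22629, 19712 and 23576 at 4 h, while the other 9 arrays lay between 7114 and 17254. The difference between 8 h and 4 h was -948 signal units (two-sided exact permutation test, p = 0.8, where 3 arrays against 3 cannot go below 0.1), and its sign turned under quantile normalisation, to 737. Of the fibroblast markers, 10 were higher and 12 lower at 8 h, and 0 had an unadjusted p under 0.05. As a similar fibroblast share was a reason for choosing the comparison, these values are not a test of it.

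Markers of other cell types were also measured, and those of mast cells were far above background in both groups. The 13 Sertoli cell markers tested, of 17 listed, summed to 1365, 1272 and 1484 at 8 h, against 1106, 1166 and 1239 at 4 h. Those sums did not overlap (exact permutation p = 0.1), and 11 of the 13 were higher at 8 h, beside 56.5% of all genes. Their median log2 difference was 0.16, but 0.06 under quantile normalisation and 0.02 with arrays shifted to 1 median. The Leydig and peritubular sum ran from 659 to 805 at 8 h, against 565 to 731 at 4 h, over 5 genes of 10 listed. The endothelial, blood and mast cell sum ran from 3508 to 5434 at 8 h, against 3752 to 4233 at 4 h, and 10 of its 11 genes tested, of 18 listed, were higher at 8 h. Over the 6 arrays the mast cell protease genes Cpa3, Mcpt4, Cma1 and Tpsb2 averaged 1223, 958, 911 and 470, and Fcer1a of the IgE receptor averaged 203. Between 8 h and 4 h these 5 genes differed by 0.00, 0.31, 0.07, 0.71 and 0.08 on the log2 scale, all with overlapping arrays. The list's median of 0.31 was 0.09 without replicate 1 at 4 h and 0.15 without replicate 2 at 8 h, 0.20 under quantile normalisation and 0.17 with arrays shifted to 1 median. Markers of the other cells lay on both sides of the background cut of 30.5 on average over the 6 arrays. Under it were Amh (16.9) and Cldn11 (12.4) of Sertoli cells, Cyp17a1 (17.2) of Leydig cells and Pecam1 (20.9) of endothelium. Above it were Clu (196) and Rhox5 (194) of Sertoli cells, Cyp11a1 (151) and Star (130) of Leydig cells and Kdr (111) of endothelium. The part of these cells in the differences between 8 h and 4 h was not tested.

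The 3 arrays at 4 h did not form a tight group. Replicate 1 at 4 h correlated with the 8 h arrays at Pearson's r of 0.970, 0.973 and 0.966 across genes, against 0.965 and 0.964 with the other 4 h arrays, which reached 0.976 with each other. The 3' to 5' signal ratio of the beta-actin control, which climbs when RNA is degraded or copied short, was 1.10, 1.18 and 1.11 at 8 h, against 1.12, 1.52 and 1.75 at 4 h. The 4 h array that stood with the 8 h arrays was thus also the one that matched their ratio. Results that hinge on it are given with and without it.

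**Figure D1:**
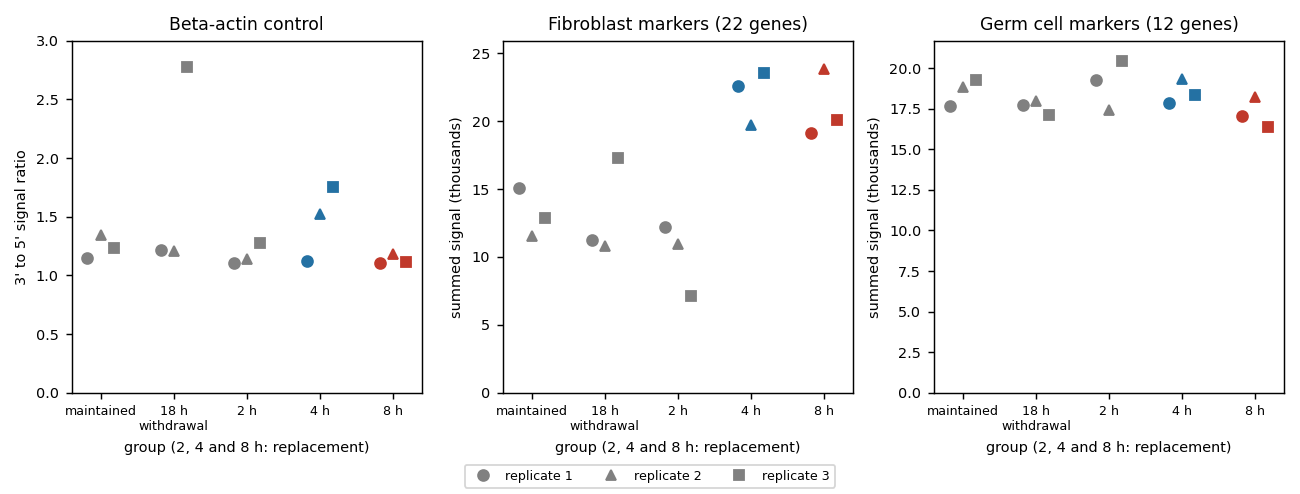
Beta-actin 3' to 5' signal ratio, summed fibroblast marker signal (22 genes) and summed germ cell marker signal (12 genes) on each of the 15 arrays, with 1 point per array, the shape giving the replicate number, and groups in order of treatment along the x axis. The 8 h (red) and 4 h (blue) arrays overlap in fibroblast signal, at 19148 to 23856 and 19712 to 23576, while the actin ratio reaches 1.52 and 1.75 on 4 h arrays and at most 1.18 at 8 h.

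No gene passed the test between 8 h and 4 h. Of 13083 genes, limma called 0 at an adjusted p under 0.05 (0% of those tested), and the lowest adjusted p was 0.0987, of Rhebl1. At an unadjusted p under 0.05 there were 1943 genes (14.9%), of which 1166 were higher (8.91%) and 777 lower at 8 h (5.94%), and at an unadjusted p under 0.01 there were 553 (4.23%). The 3 arrays of one time lay all above or all below the 3 of the other in 2802 genes (21.4%), of which 1603 were higher (12.3%) and 1199 lower at 8 h (9.16%). The same fit called 254 genes between 4 h and 2 h (1.94%), 346 between 4 h and withdrawal (2.64%) and 313 between 8 h and withdrawal (2.39%). Those comparisons share arrays with 8 h against 4 h. The count was not the same in every setting: it was 63 without replicate 1 at 4 h (40 higher, 23 lower), 16 without the withdrawal array whose actin ratio was 2.77 (4 higher, 12 lower), 278 with arrays weighted by quality (128 higher, 150 lower), 14 with arrays shifted to 1 median (0 higher, 14 lower) and 3 with a constant of 64. That shift also moved the middle of the distribution: the median log2 difference of all genes was 0.05 as deposited, with 56.5% of genes above 0, and -0.09 after the shift, with 38.0% above 0.

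**Figure D2:**
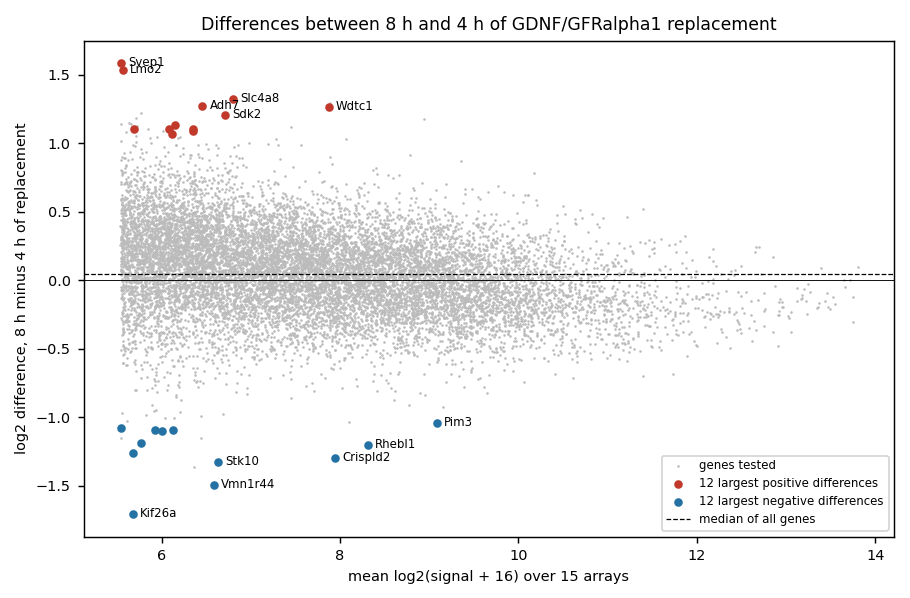
Log2 difference of each of the 13083 genes, 8 h minus 4 h of replacement, against its mean log2 (signal + 16) over the 15 arrays, with the 12 largest positive (red) and 12 largest negative (blue) differences among named genes with an unadjusted p under 0.01 and no overlap. The dashed line is the median of all genes at 0.05. Most of the coloured points lie at low signal, with Pim3, Crispld2, Rhebl1 and Wdtc1 among the brighter ones.

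Cholesterol genes had the lowest median of the 25 pathway lists. Of its 20 genes tested, 17 were lower and 3 higher at 8 h, with a median log2 difference of -0.26, beside 43.5% lower and a median of 0.05 over all genes. Of the 20, 8 were lower at an unadjusted p under 0.05 (5.94% of all genes) and 0 were higher, and none was called. The 8 became 5 without replicate 3 at 8 h or without replicate 2 at 4 h. The median was -0.23 under quantile normalisation and -0.41 with arrays shifted to 1 median, ran from -0.34 to -0.24 as each of the 6 arrays was left out, and was -0.33 with the actin ratio as a covariate. The 8 members span the pathway. They were Hsd17b7, Idi1, Msmo1, Hmgcs1, Mvk (mevalonate kinase), Lss (lanosterol synthase), the sterol carrier Stard4, and Insig1, which retains the SREBP complex in the endoplasmic reticulum and is itself an SREBP target.

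Hsd17b7, the keto reductase of the last steps of cholesterol synthesis, had signals of 172, 208 and 147 at 8 h, against 243, 309 and 349 at 4 h. Every 8 h array was below every 4 h array, with a log2 difference of -0.72 (SE 0.15, limma's adjusted p = 0.113). The gene has other probe sets, which gave -0.42, -0.10 and -0.01, and the one used here is of a type that can cross-hybridise. Idi1 makes dimethylallyl diphosphate, a building block of all isoprenoids. It had 2362, 2016 and 1815 at 8 h, against 3038, 3810 and 3203 at 4 h, a log2 difference of -0.70 (SE 0.15, limma's adjusted p = 0.113). Here too the groups did not overlap, and the second probe set gave -0.65.

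Msmo1, the sterol C4-methyl oxidase, averaged 1425 ± 115 at 8 h and 2014 ± 272 at 4 h (SD, n = 3 each), a log2 difference of -0.49 (SE 0.16). Hmgcs1, which makes HMG-CoA for the pathway's rate-limiting reductase, had 6896, 6529 and 6186 at 8 h, against 8199, 10172 and 9018 at 4 h. Its log2 difference was -0.48 (SE 0.19), and 3 of its 4 other probe sets were negative too, at -0.54, -0.40 and -0.13, with the last at 0.12. Insig1 averaged 1492 ± 427 at 8 h and 2187 ± 371 at 4 h (SD, n = 3 each), with overlapping groups and a log2 difference of -0.58 (SE 0.25). Mvk differed by -0.55 (SE 0.23), Stard4 by -0.43 (SE 0.14) and Lss by -0.40 (SE 0.18), all on the log2 scale and without overlap. The 3 genes that were higher at 8 h, Tm7sf2, Ebp and Pmvk, differed by 0.11, 0.09 and 0.04. Over all 22 further probe sets of the list's genes, 17 were lower at 8 h and the median was -0.12.

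Promoters are shown for 3 of these genes because most of the list was lower at 8 h and because SREBP2 acts at sterol promoters beside NF-Y, the factor that binds CCAAT boxes. The windows run from 250 bases before to 50 after the RefSeq gene start, read 5′ to 3′ on the gene's own strand (RefSeq, GRCm38.p6), and capitals mark CCAAT on either strand, which reads ATTGG on the other. They lie at chr1:169969156-169969455 on the minus strand for Hsd17b7, chr13:8885356-8885655 on the plus strand for Idi1 and chr13:119690101-119690400 on the plus strand for Hmgcs1.
Hsd17b7: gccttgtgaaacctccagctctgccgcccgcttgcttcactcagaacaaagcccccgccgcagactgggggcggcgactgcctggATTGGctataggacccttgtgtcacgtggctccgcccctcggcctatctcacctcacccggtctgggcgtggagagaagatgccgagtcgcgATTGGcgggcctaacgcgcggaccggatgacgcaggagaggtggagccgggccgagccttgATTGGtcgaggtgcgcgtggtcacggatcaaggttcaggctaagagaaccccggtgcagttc
Idi1: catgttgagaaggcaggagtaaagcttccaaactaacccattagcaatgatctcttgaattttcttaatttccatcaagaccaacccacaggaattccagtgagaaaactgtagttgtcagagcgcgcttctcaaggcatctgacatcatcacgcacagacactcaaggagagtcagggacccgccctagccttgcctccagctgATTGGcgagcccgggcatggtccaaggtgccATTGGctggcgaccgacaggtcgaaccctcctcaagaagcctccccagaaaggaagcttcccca
Hmgcs1: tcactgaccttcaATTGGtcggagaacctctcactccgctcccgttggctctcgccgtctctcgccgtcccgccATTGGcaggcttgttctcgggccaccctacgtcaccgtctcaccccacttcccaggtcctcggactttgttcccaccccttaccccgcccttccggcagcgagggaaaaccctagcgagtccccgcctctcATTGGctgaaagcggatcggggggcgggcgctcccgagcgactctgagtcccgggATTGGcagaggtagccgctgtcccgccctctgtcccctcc
The Hsd17b7 window holds 3 such boxes, Idi1 2 and Hmgcs1 4. Of the list's 20 genes, 16 matched a window and all 16 held CCAAT on either strand in at least 1 window (16 of 19 windows), against 41.1% of all 27025 genes (37.4% of 32851 windows of the same 300 bases). A classical sterol regulatory element, searched as TCACNCCAC on both strands, was in 1 of the 16, as TCACCCCAC at position -137 from the start of Hmgcs1, where it overlaps no CCAAT box, against 1.44% of all genes. A match is a description of these letters, and not a site shown to be bound. The 27025 genes are all those with a window and not only those tested here, so the shares are not like for like. The part of these boxes in the differences was not tested. Genes on the list that were higher at 8 h, such as Ebp and Pmvk, held CCAAT as well.

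Across the whole course the sterol genes had a level below maintained cultures at 18 h of withdrawal, where 18 of 20 were lower, 13 of them called, with a median of -0.71. At 4 h of replacement all 20 were above withdrawal (7 called, median 0.48), and at 8 h 14 of 20 were (1 called, median 0.22). Against maintained cultures, 19 of 20 were lower at 8 h (2 called, median -0.55). The last comparisons share arrays with 8 h against 4 h and are set beside it only as values.

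**Figure D3:**
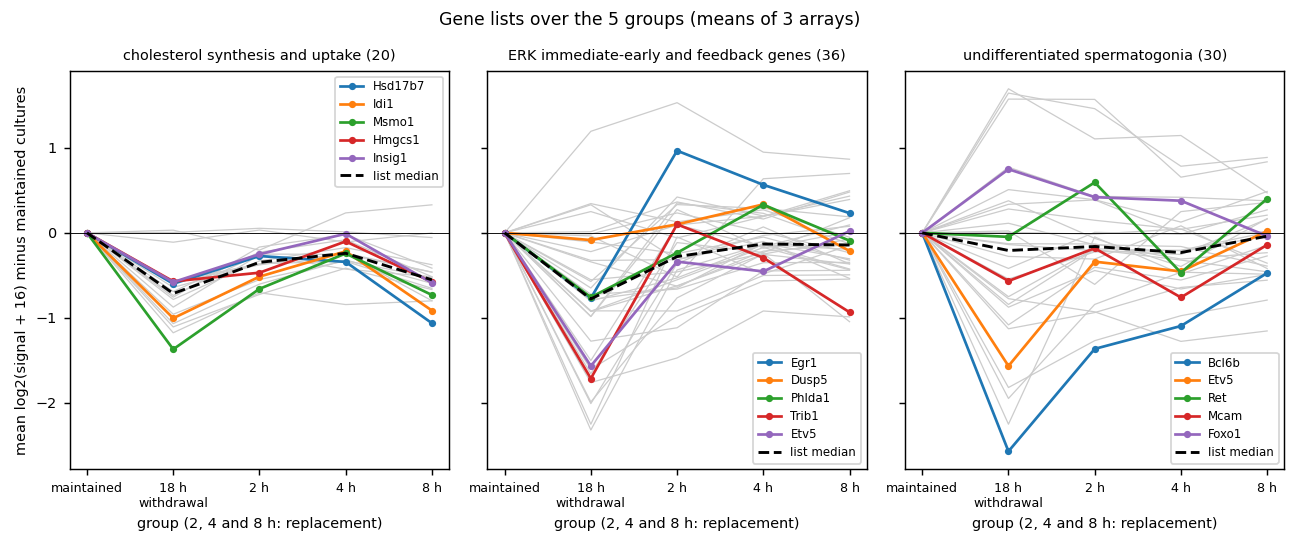
Mean log2 (signal + 16) of 3 arrays, minus the mean of maintained cultures, for the 20 cholesterol genes, the 36 ERK immediate-early and feedback genes and the 30 genes of undifferentiated spermatogonia, over the 5 groups. Grey lines are genes, coloured lines are the genes in each legend, and the dashed line is the list median. The cholesterol median lies lowest at withdrawal, at -0.71, and at -0.55 at 8 h, and Bcl6b and Etv5 are nearer to maintained cultures at 8 h than at 4 h.

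Early ERK target genes were split. Of the 36 tested, 17 were higher and 19 lower at 8 h (median -0.06, 0 called). At an unadjusted p under 0.05, 6 were lower and 1 higher, beside 5.94% and 8.91% of all genes. The 6 were the nuclear ERK phosphatases Dusp5 and Dusp2, the early genes Phlda1, Egr1 and Atf3, and the pseudokinase gene Trib1. The 1 higher was Etv5. Without replicate 1 at 4 h the counts were 7 lower and 3 higher, and without replicate 3 at 8 h they were 2 lower and 0 higher.

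Dusp5 had signals of 326, 413 and 378 at 8 h, against 673, 427 and 575 at 4 h, a log2 difference of -0.55 (SE 0.18, limma's adjusted p = 0.223). The groups stood apart, but the highest 8 h array and the lowest 4 h array were close. Egr1, a zinc finger factor switched on within minutes of growth factor signalling, had 2579, 3155 and 2934 at 8 h, against 3733, 3577 and 3589 at 4 h, a log2 difference of -0.33 (SE 0.14, limma's adjusted p = 0.307). All 3 arrays at 8 h were lower, and both groups were above the mean of 1448 at withdrawal. Phlda1 had 486, 500 and 395 at 8 h, against 582, 642 and 635 at 4 h, a log2 difference of -0.42 (SE 0.14) without overlap, and both groups were above its withdrawal mean of 286. Other members gave no clear difference: Fos differed by -0.36 (SE 0.20), Egr2 by -0.29 (SE 0.19), Dusp6 by 0.41 (SE 0.26), Spry2 by -0.07 (SE 0.25) and Myc by 0.02 (SE 0.22), all with overlapping arrays. Egr3 depended on the probe set: the one used here gave 0.32, while the other averaged 104 at 8 h and 282 at 4 h, a log2 difference of -1.32, and was the one called with a constant of 64.

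The laboratory's GDNF-regulated genes, a list that came from work which drew on these arrays and so is not independent evidence of direction, had 5 of 8 members higher and 3 lower at 8 h (median 0.26, 0 called). The median was 0.12 with arrays shifted to 1 median and ran from 0.17 without replicate 1 at 8 h to 0.40 without replicate 2 at 8 h. Bcl6b, a transcriptional repressor needed for stem cell maintenance, had 374, 523 and 438 at 8 h, against 259, 296 and 289 at 4 h. Every 8 h array was above every 4 h array, with a log2 difference of 0.62 (SE 0.23, limma's adjusted p = 0.267). Its mean was 92.9 after withdrawal and 630 in maintained cultures. Etv5, an ETS family factor downstream of ERK and of FGF and GDNF signalling, had 966, 1188 and 1103 at 8 h, against 896, 831 and 624 at 4 h, a log2 difference of 0.47 (SE 0.22, limma's adjusted p = 0.333). The groups did not overlap, its other probe sets gave 0.54 and 0.81, and maintained cultures averaged 1108.

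Pou3f1 stood on the opposite side. This POU factor, known in these cells as a GDNF-responsive survival gene, had 196, 187 and 180 at 8 h, against 283, 335 and 396 at 4 h. The 8 h arrays lay close together and below all 4 h arrays, with a log2 difference of -0.78 (SE 0.16, limma's adjusted p = 0.113), although a second probe set gave 0.24. Withdrawal had lowered it (log2 difference of -1.15, limma's adjusted p = 0.00043), and the 4 h arrays were 0.99 above withdrawal on the same scale. Lhx1 differed by -0.02 (SE 0.21), Cxcr4 by 0.20 (SE 0.23) and Id4 by 0.18 (SE 0.18), each with overlapping arrays, and all 3 are genes that withdrawal had lowered.

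Genes of undifferentiated spermatogonia were mostly higher at 8 h, with 22 of 30 higher, 8 lower, a median of 0.17 and 0 called. Over all genes 56.5% were higher. The list's median stayed above 0 under quantile normalisation (0.18) and with arrays shifted to 1 median (0.03), where all genes together had -0.09. Bcl6b, Etv5, Lhx1 and Tspan8 are on both this list and the laboratory's. At an unadjusted p under 0.05 there were 6 higher and 3 lower, beside 8.91% and 5.94% of all genes. These counts were 7 and 4 without replicate 1 at 4 h, and 3 higher without replicate 2 or 3 of either group. Ret, the receptor that carries the GDNF signal, had 760, 836 and 790 at 8 h, against 757, 369 and 278 at 4 h. Replicate 1 at 4 h was level with the 8 h arrays and the other 4 h arrays were far below them, so the log2 difference of 0.87 (SE 0.34) became 1.27 without that array and 0.42 with the actin ratio as a covariate, and a second probe set gave -0.25. Mcam, a cell adhesion molecule of stem cell cultures, had the same layout, with 1149, 1072 and 1079 at 8 h, against 953, 587 and 638 at 4 h, a log2 difference of 0.62 (SE 0.20). In both genes the array that lay nearest to the 8 h group was also the one with the actin ratio of 1.12.

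The co-receptor Gfra1 had 1086, 1066 and 1026 at 8 h, against 761, 1157 and 941 at 4 h, with overlap and a log2 difference of 0.17 (SE 0.20), while its dimmer probe sets gave 0.84 and 1.04. The tetraspanin gene Tspan8, a surface marker of stem cells, had 145, 142 and 181 at 8 h, against 114, 108 and 116 at 4 h, a log2 difference of 0.42 (SE 0.14) without overlap. Foxo1, the forkhead factor that PI3K and AKT signalling keeps out of the nucleus, was lower at 8 h, with 482, 586 and 491, against 638, 738 and 715 at 4 h. Its log2 difference was -0.42 (SE 0.13), its other probe sets gave -0.17 and 0.06, and withdrawal had raised it by 0.75 (limma's adjusted p = 0.00179). Zbtb16 (PLZF), a zinc finger factor of self-renewal, differed by -0.04 (SE 0.20). The wider list of GDNF and FGF family ligands and receptors had 13 of 21 members higher at 8 h (median 0.22, 0 called), beside 56.5% higher over all genes. Its median was 0.10 under quantile normalisation, 0.08 with arrays shifted to 1 median and 0.10 without replicate 1 at 4 h. At an unadjusted p under 0.05 were Ret, the adaptor Shc1 (0.38, SE 0.17) and the ligand Nrtn (0.50, SE 0.23). Without replicate 2 at 4 h that count was 0, and without replicate 1 at 4 h it was 5 higher and 1 lower.

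**Figure D4:**
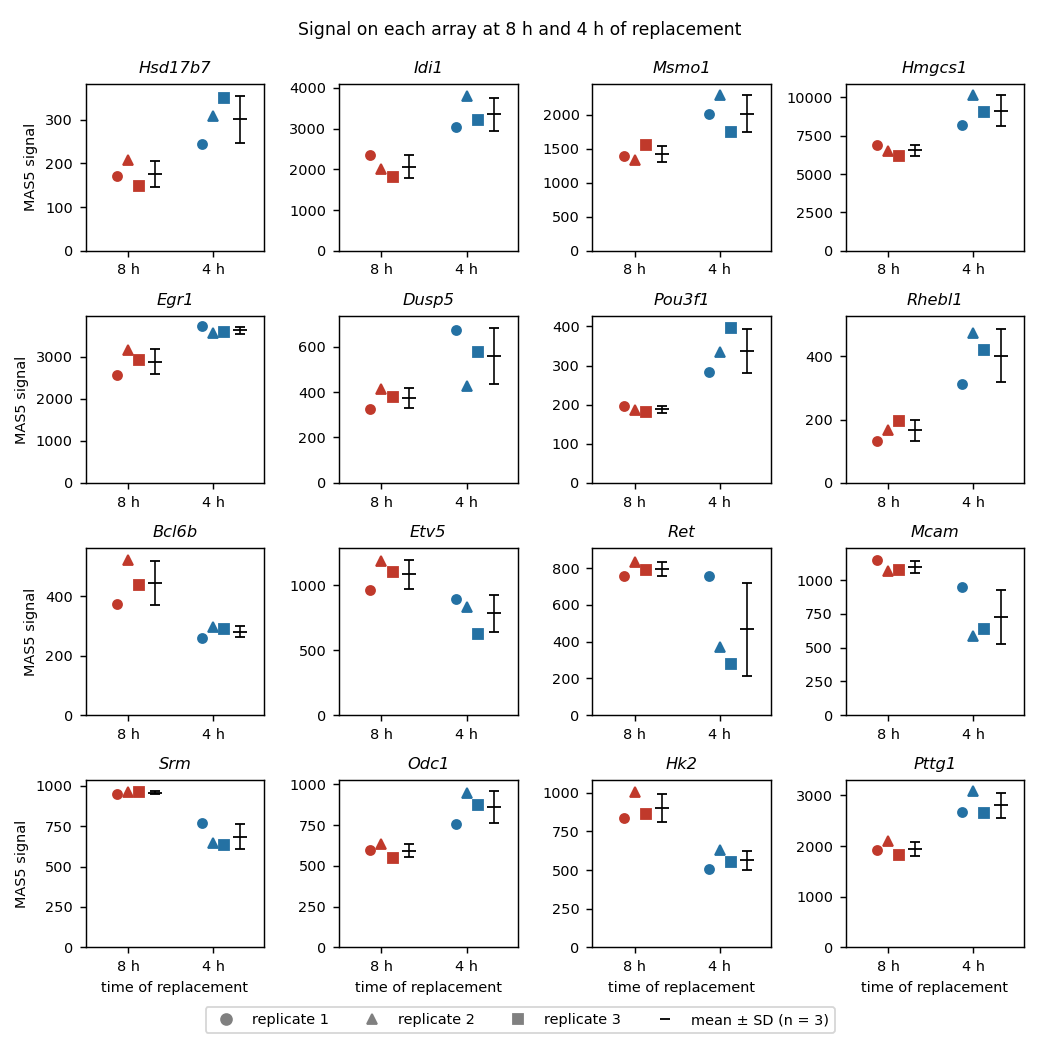
MAS5 signal of 16 genes on each of the 3 arrays at 8 h (red) and the 3 at 4 h (blue), with the shape giving the replicate number and bars the mean and SD over 3 arrays. Each y axis starts at 0. In Hsd17b7, Idi1 and Hmgcs1 all 8 h points are below all 4 h points, in Bcl6b, Etv5 and Hk2 all are above, and in Ret and Mcam replicate 1 at 4 h lies near the 8 h points.

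Genes that withdrawal had raised were set beside those lower at 8 h. Withdrawal against maintained cultures shares no array with 8 h against 4 h, although both come from 1 fit. Of the 236 genes lower at 8 h at an unadjusted p under 0.01 (1.8% of those tested), 37 had been called as raised by withdrawal, which is 15.7% of the 236 and 6.72% of the 551 raised genes, against 4.21% of all genes raised. A further 17 of the 236 had been lowered (7.2%, against 3.83% of all genes). Of the 317 genes higher at 8 h (2.42%), 16 had been lowered (5.05%) and 11 raised (3.47%). The first share moved as arrays were left out. Without replicate 1 at 4 h, 28 of 460 genes lower at 8 h had been raised (6.09%, against 4.65% of all genes), and 38 had been lowered (8.26%, against 4.14%). Without withdrawal replicate 3 it was 29 of 393 (7.38%, against 2.32% of all genes), with 17 lowered (4.33%, against 2.71%). Without both arrays it was 32 of 768 (4.17%, against 3.12%), and 53 had been lowered (6.9%, against 3.47%). Of the genes higher at 8 h, 39 of 554 had been raised without replicate 1 at 4 h (7.04%, against 4.65%). There 17 had been lowered (3.07%, against 4.14%). Without withdrawal replicate 3, 10 of 395 had been raised (2.53%, against 2.32%) and 17 lowered (4.3%, against 2.71%). Without both arrays, 45 of 754 had been raised (5.97%, against 3.12%) and 18 lowered (2.39%, against 3.47%).

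Among the 37 were Ddit4 and Rragd, of the FOXO target list. Ddit4 (REDD1), an inhibitor of mTORC1, had 1135, 607 and 1138 at 8 h, against 1546, 1489 and 1546 at 4 h, a log2 difference of -0.72 (SE 0.22, limma's adjusted p = 0.213). The groups did not overlap, and the withdrawal mean was 2915, against 1193 in maintained cultures. Rragd, a RAG GTPase that brings mTORC1 to the lysosome, had 438, 550 and 405 at 8 h, against 707, 629 and 806 at 4 h, a log2 difference of -0.61 (SE 0.17), with a dimmer probe set at -0.07. Its withdrawal mean was 1146, against 257 in maintained cultures. The list of 24 FOXO targets as a whole had 12 members on each side (median 0.00). At an unadjusted p under 0.05, 4 were lower and 0 higher, beside 5.94% and 8.91% of all genes. Without replicate 2 or replicate 3 at 4 h, 2 were lower.

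The 3 of the 37 with the lowest p, chosen after their values were seen, were Camk2n1, Zbtb22 and Msi2. Camk2n1, an inhibitor of CaM kinase II, had 243, 302 and 297 at 8 h, against 647, 441 and 548 at 4 h, a log2 difference of -0.91 (SE 0.17, limma's adjusted p = 0.113). The 8 h arrays were all lower, and its mean was 152 in maintained cultures, 875 after withdrawal and 641 at 2 h of replacement. Its second, dimmer probe set gave 0.22. Msi2, an RNA-binding protein of stem and progenitor cells, differed by -0.87 (SE 0.17) and the zinc finger gene Zbtb22 by -0.74 (SE 0.14), both without overlap. The other probe sets of Msi2 went both ways, at -0.48, -0.41, -0.17, -0.07, 0.03, 0.35 and 0.39. Upp1, which splits uridine and is on the undifferentiated list, was also among the 37, at -0.67 (SE 0.23).

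Most mitotic genes had small negative differences, and few passed even an unadjusted test. Of 36 genes of G2 and M, 31 were lower and 5 higher, with a median of -0.17 and 0 called, beside 43.5% lower and a median of 0.05 over all genes. At an unadjusted p under 0.05, 3 of the 36 were lower (5.94% of all genes), or 6 without replicate 1 at 4 h and 1 without replicate 2 or 3 there. The median was -0.13 under quantile normalisation and -0.31 with arrays shifted to 1 median, against -0.09 for all genes. Pttg1 (securin), which holds back separase until anaphase, had 1922, 2092 and 1823 at 8 h, against 2674, 3078 and 2650 at 4 h, a log2 difference of -0.52 (SE 0.19, limma's adjusted p = 0.251). The groups stood well apart, and its other probe sets gave -0.17 and -0.35. Nek2, a kinase of the centrosome, had 463, 476 and 453 at 8 h, against 484, 659 and 600 at 4 h, a difference of -0.30 (SE 0.14), with other probe sets at -0.27 and 0.42. Core members were near 0 or small, with Plk1 at -0.01, Aurka at -0.02 and Ccnb2 at -0.19 on the log2 scale. The further 40 probe sets of these genes had 21 lower and 19 higher, with a median of -0.02.

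The G1/S and DNA replication list showed no such lean, with 20 of 47 higher and 27 lower, and a median of -0.07 that turned to 0.02 under quantile normalisation. Ccnd2, cyclin D2, averaged 0.12 (SE 0.18) higher on the log2 scale, Pcna differed by -0.10 (SE 0.21) and the ribonucleotide reductase gene Rrm2 by -0.07 (SE 0.29). Withdrawal had lowered all 3, with limma's adjusted p of 0.0066, 0.0034 and 0.0071. The other, dimmer probe sets of Rrm2 gave 0.78 and 0.12. Orc6 of the origin recognition complex differed by -0.49 (SE 0.19), and Pold1, the catalytic subunit of polymerase delta, by 0.42 (SE 0.17), with a second probe set at -0.57.

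Growth genes pulled in both directions. In the ribosome biogenesis and MYC list, 30 of 43 genes were higher at 8 h, beside 56.5% of all genes, and 13 were lower. The list's median was 0.14, with 0 called. At an unadjusted p under 0.05, 7 were higher and 4 lower, beside 8.91% and 5.94% of all genes. Without replicate 1 at 4 h the counts were 14 higher and 5 lower and the median 0.22, and without replicate 2 there they were 2 and 2 and the median 0.07. The median was 0.03 without replicate 3 at 4 h. With arrays shifted to 1 median the list median was 0.00. The further 45 probe sets of these genes had 22 higher and 23 lower, with a median of -0.01. The 7 higher genes were the polyamine enzyme gene Srm, the RNA polymerase I subunits Polr1a and Polr1b, the assembly factors Noc3l, Noc4l and Heatr1, and Cad of pyrimidine synthesis. The 4 lower genes were Odc1 and the nucleolar genes Wdr75, Nop56 and Npm1.

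Srm and Odc1 of the polyamine pathway differed in opposite directions, and neither was called. Srm, spermidine synthase, had 948, 963 and 964 at 8 h, against 772, 648 and 632 at 4 h, a log2 difference of 0.48 (SE 0.13, limma's adjusted p = 0.192). Odc1, ornithine decarboxylase and the pathway's rate-limiting entry, had 601, 632 and 550 at 8 h, against 759, 950 and 873 at 4 h, a difference of -0.52 (SE 0.13, limma's adjusted p = 0.172). Both had no overlap, and the other probe sets of Odc1 gave -0.27 and -0.34. Maintained cultures averaged 1007 for Srm and 1037 for Odc1.

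Of 23 genes of glucose uptake, glycolysis and the pentose phosphate pathway, 11 were higher and 12 lower, with a median of -0.01 that turned to 0.05 under quantile normalisation. Hk2, the inducible hexokinase that traps glucose, was at the head of them, with 836, 1005 and 861 at 8 h, against 508, 630 and 552 at 4 h. Its arrays were far from overlapping, with a log2 difference of 0.66 (SE 0.14, limma's adjusted p = 0.113), and withdrawal had lowered it (log2 difference of -1.01, limma's adjusted p = 0.00047). Hk1, the constitutive isoform, had 304, 375 and 325 at 8 h, against 402, 423 and 401 at 4 h, a difference of -0.28 (SE 0.12). Oxidative phosphorylation had 20 of 26 genes lower at 8 h (median -0.21), beside 43.5% of all genes. Only Ndufb8 of complex I (-0.47, SE 0.21) was lower and only Uqcrc1 of complex III (0.41, SE 0.19) higher at an unadjusted p under 0.05. Without replicate 1 at 4 h those counts were 6 lower and 1 higher. The list's median was -0.05 under quantile normalisation, -0.36 with arrays shifted to 1 median, -0.10 without replicate 2 at 4 h and -0.10 with the actin ratio as a covariate.

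Cytokine signalling genes were split. In the list of 16 JAK-STAT, SOCS and PIM genes, 9 were higher and 7 lower. The list's median of 0.09 turned to -0.01 under quantile normalisation and to -0.05 with arrays shifted to 1 median. At an unadjusted p under 0.05, 4 were higher and 3 lower, beside 8.91% and 5.94% of all genes. The 4 became 2 without replicate 3 of either group. The growth-promoting kinase gene Pim3 had 275, 221 and 433 at 8 h, against 516, 688 and 704 at 4 h, a log2 difference of -1.04 (SE 0.21, limma's adjusted p = 0.113). The groups did not overlap, yet its other probe sets gave -0.07 and 0.22. Socs3, the feedback inhibitor of gp130 signalling, had 1050, 1125 and 1128 at 8 h, against 1263, 1716 and 1669 at 4 h, a difference of -0.47 (SE 0.13), with other probe sets at 0.08 and -0.22. The gp130 receptor gene Il6st (0.62, SE 0.19) and Jak1 (0.54, SE 0.21) were higher and the LIF receptor gene Lifr (-0.61, SE 0.27) lower at 8 h.

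**Figure D5:**
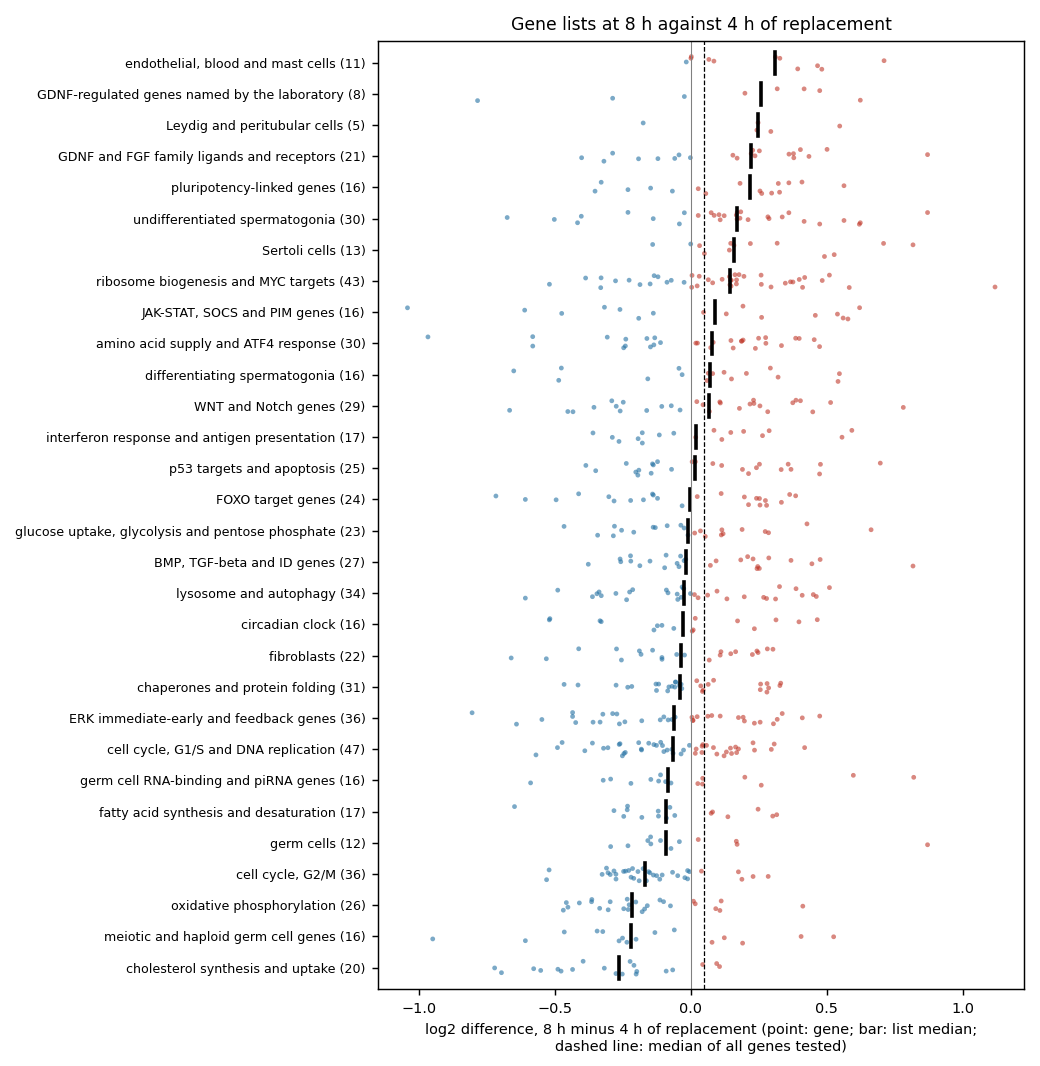
Log2 difference, 8 h minus 4 h of replacement, of every tested member of the 25 pathway lists and 5 marker lists, with 1 point per gene (red above 0, blue below), the number of genes in brackets and a bar at each list's median. The dashed line is the median of all genes, 0.05. The cholesterol list has the lowest median, -0.26, and the endothelial, blood and mast cell list the highest, 0.31 (0.09 without replicate 1 at 4 h), and every list spans 0.

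Differentiation markers showed no common direction. Of 16 genes of differentiating spermatogonia, 10 were higher and 6 lower, with a median of 0.07 that turned to -0.07 with arrays shifted to 1 median. Dmrt1, which holds spermatogonia back from meiosis, had 1895, 2000 and 1559 at 8 h, against 2708, 2325 and 2596 at 4 h, a log2 difference of -0.49 (SE 0.12, limma's adjusted p = 0.187). Its groups did not overlap, and withdrawal had raised it by 0.56 (limma's adjusted p = 0.0104). The DNA methyltransferase gene Dnmt3b differed by -0.48 (SE 0.15), with a second probe set at 0.02. Kit, the receptor of differentiating spermatogonia, differed by 0.08 (SE 0.15), Sohlh1 by 0.15 (SE 0.22) and Neurog3 by 0.18 (SE 0.23), all with overlap. Stra8, a retinoic acid target, had 54.3, 61.7 and 54.6 at 8 h, against 44.7, 23 and 36.9 at 4 h, close to background, a difference of 0.54 (SE 0.25).

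Meiotic and haploid genes had 11 of 16 members lower at 8 h, beside 43.5% of all genes, with a median of -0.22 and 0 called. At an unadjusted p under 0.05, 2 were lower (5.94% of all genes), or 4 without replicate 1 at 4 h. The median was -0.11 without replicate 3 at 4 h and -0.36 with arrays shifted to 1 median. Smc1b, the meiosis-specific cohesin, had 323, 380 and 310 at 8 h, against 494, 543 and 528 at 4 h. The groups were clearly apart, with a log2 difference of -0.61 (SE 0.12, limma's adjusted p = 0.113). Its partner Rec8 was faint, at 10.3, 45.2 and 15.2 at 8 h, against 57.7, 50.8 and 57.3 at 4 h, a difference of -0.95 (SE 0.37). Among the 16 genes of germ cell RNA binding and the piRNA pathway, the helicase gene Mov10l1 was higher by 0.60 (SE 0.20) with overlapping arrays while Gtsf1, a zinc finger partner of PIWI proteins, differed by -0.59 (SE 0.22) without overlap. Dazl, the translational regulator of germ cells, had 6088, 5689 and 5737 at 8 h, against 6812, 7637 and 7059 at 4 h, a difference of -0.29 (SE 0.18). That list's median was -0.08, and 0.04 under quantile normalisation. Of 16 pluripotency-linked genes, 11 were higher and 5 lower (median 0.22), beside 56.5% higher over all genes. The median of these 16 was 0.11 under quantile normalisation and 0.08 with arrays shifted to 1 median. Dppa4 differed by 0.41 (SE 0.13). Klf4 differed by -0.35 (SE 0.16), Sox2 by 0.06 (SE 0.22) and Pou5f1 by -0.15 (SE 0.14), each with overlapping arrays, and a second probe set of Klf4 gave 0.11.

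In the remaining lists the median lay between -0.09 and 0.08. Fatty acid synthesis had 11 of 17 genes lower (median -0.09, and -0.04 under quantile normalisation), led by Acsl4, which activates arachidonic acid, with 221, 157 and 167 at 8 h, against 243, 342 and 297 at 4 h, a log2 difference of -0.65 (SE 0.15) and other probe sets at 0.17 and 0.04. Amino acid supply and the ATF4 response had 18 of 30 higher (median 0.08, and -0.06 with arrays shifted to 1 median). Chaperones had 13 of 31 higher (median -0.04, and 0.09 under quantile normalisation), and there the endoplasmic reticulum co-chaperone gene Dnajb11 differed by -0.47 (SE 0.15) and the stress factor gene Xbp1 by 0.33 (SE 0.14), with other probe sets of Xbp1 at 0.65, -0.01 and -0.15. The p53 list had 14 of 25 higher (median 0.02), lysosome and autophagy 15 of 34 (median -0.03) and the circadian clock 8 of 16 (median -0.03). BMP and TGF-beta had 13 of 27 higher (median -0.02), WNT and Notch 17 of 29 (median 0.07) and interferon and antigen presentation 9 of 17 (median 0.02). The medians of the p53, WNT and interferon lists turned sign under both other scalings, and that of the BMP list turned to 0.05 under quantile normalisation. Within the WNT list the R-spondin receptor gene Lgr5 had 181, 162 and 185 at 8 h, against 120, 112 and 123 at 4 h, a difference of 0.51 (SE 0.15), and Wnt5a differed by -0.67 (SE 0.23), with other probe sets at -0.50 and 0.39.

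Of the single genes with the widest gaps, 12 in each direction were taken, and the lower ones included brighter signals. Rhebl1, a RHEB-like GTPase that can activate mTORC1, had 132, 168 and 196 at 8 h, against 312, 475 and 419 at 4 h, a log2 difference of -1.20 (SE 0.19, limma's adjusted p = 0.0987). Its groups were far apart, with means of 324 in maintained cultures, 363 after withdrawal and 329 at 2 h of replacement, but its second probe set gave -0.29. Crispld2, a secreted protein gene, had 117, 216 and 60 at 8 h, against 283, 298 and 353 at 4 h, a difference of -1.30 (SE 0.29), with other probe sets at -0.42 and -0.24. The kinase gene Stk10 had 45.8, 44.2 and 47.8 at 8 h, against 61.3, 178 and 234 at 4 h, so its difference of -1.33 (SE 0.46) came mostly from replicates 2 and 3 at 4 h. Vmn1r44 and Col2a1 had 8 h means of 37.7 and 32.8, just above background, with log2 differences of -1.49 (SE 0.40) and -1.10 (SE 0.34). The others, Kif26a, Ptprcap, Adgrg1, Cpped1, Lrrc73 and Efhc2, had 8 h means of 12.6 to 25.7, under the background cut of 30.5, so only the side and not the size of their difference can be read. Pim3, at -1.04, was described above.

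Higher at 8 h were Svep1, an extracellular matrix gene, with 92.4, 119 and 80.1 at 8 h, against 18.9, 23.1 and 22.5 at 4 h, and Lmo2, a LIM-domain partner of blood and endothelial transcription factors, with 58.5, 27.9 and 101 at 8 h, against 10.1, 6.0 and 11.7 at 4 h. Their log2 differences were 1.58 (SE 0.30) and 1.53 (SE 0.36). Neither had overlapping arrays, but both lay under the background cut of 30.5 at 4 h, so the size of the difference depends on the constant of 16 added before the log. Wdtc1 was the brightest of these, with 272, 262 and 337 at 8 h, against 221, 30.7 and 170 at 4 h, and replicate 2 at 4 h stood far below the rest. Its difference was 1.26 (SE 0.38). The others were Slc4a8, Adh7, Sdk2, Iqca, Acp7, Lad1, Krt71, Rtn4r and Bpifb9b, between 1.32 and 1.07, of which Iqca, Krt71 and Bpifb9b were under the background cut at 4 h. All 24 kept their direction in each of the alternative settings in which they were tested. They had been picked for arrays without overlap, so leaving out an array could not turn their direction.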

How the data were processed

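The deposited unit is a linear intensity, the MAS5 signal, which the authors computed per the submitters' processing notes. Neither the version of MAS5 nor its scaling target is given in the sources used here. Of 45101 probe sets, 34958 carried 1 gene symbol, 932 several and 9211 none in the platform's annotation, and 64 controls were left out. The signals were taken as log2 (signal + 16), the dimmest 40% of probe sets (under a signal of about 30.5) were dropped, and each gene was represented by its brightest probe set, which gave 13083 genes. Group means of all 5 groups were fitted to the 15 arrays by lmFit and eBayes of limma 3.58.1 (R 4.3.3), with a variance trend and 10 residual degrees of freedom. Tests were two-sided, with Benjamini-Hochberg adjustment over all genes, and called means an adjusted p under 0.05. Values with ± are means and SDs of signal over 3 arrays, and SE is that of the log2 difference, with a median of 0.19 over genes, which the number of arrays limits. The script was tested on simulated data.

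The comparison, the 30 lists (641 of 757 genes tested) and the tests were chosen with earlier results of these data known. Genes were named by a rule: the 12 largest differences each way with no overlap and, as no gene was called, an unadjusted p under 0.01, clone names skipped; the 2 members of each list with the lowest p; and a fixed panel. Other list members named were those with an unadjusted p under 0.05 or were taken to show the middle of a list, after their values were seen.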

Additional observations from a re-analysis of the deposited data

How the results depend on the processing

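The count of called genes was 0 and stayed 0 with a constant of 1, without the filter and with the dimmest 60% left out. It stayed 0 under quantile normalisation, with the 6 arrays alone and without the variance trend. The same held with the fibroblast sum or the actin ratio as a covariate. A setting meant to average probe sets divided sums by numbers that were not always the gene's own. Its count of 0 is therefore not a count for averaged probe sets. The count was 3 with a constant of 64, 14 with arrays shifted to 1 median, 278 with array weights (57 of them also called without replicate 1 at 4 h) and 16 without withdrawal replicate 3, and ran from 0 to 63 as each of the 6 arrays was left out, 63 being without replicate 1 at 4 h. Leaving out withdrawal replicate 3 and the actin covariate were chosen after seeing the data. Same-numbered arrays at 8 h and 4 h did not deviate together (correlations of -0.09, -0.01 and -0.04), and with the replicate block the count was 0, with 1981 genes at an unadjusted p under 0.05; the fibroblast difference was then -948 (p = 1, exact permutation test). The fibroblast difference ran from -2363 to -9.3 as arrays were left out, and was 737 under quantile normalisation. The count of 37 genes lower at 8 h and raised by withdrawal was 28 without 4 h replicate 1, 29 without withdrawal replicate 3 and 32 without both, of 460, 393 and 768 genes lower at 8 h (6.09%, 7.38% and 4.17%, beside 15.7% of 236).

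Of 104 named genes, 13 turned sign in at least 1 setting. None of the 24 with the widest gaps did, but those had been picked for arrays without overlap. Under quantile normalisation the log2 difference was -0.12 for Myc, 0.11 for Pcna, 0.044 for Rrm2, -0.090 for Sox2 and 0.092 for Zbtb16. With arrays shifted to 1 median it was -0.12 for Myc, -0.020 for Ccnd2, -0.062 for Kit and -0.087 for Sox2. The setting meant to average probe sets gave -0.15 for Pold1, -0.17 for Elovl1, 0.40 for Lhx1, 0.83 for Rrm2 and 0.0086 for Zbtb16. These are not means, as sums were divided by numbers that were not always the gene's own, and only their sign can be read. The 0.83 of Rrm2 lies above all its probe sets, the highest of which gave 0.78. With the actin covariate the log2 difference was -0.022 for Myc, 0.11 for Rrm2 and 0.14 for Zbtb16. As each of the 6 arrays was left out, the difference crossed 0 and ran from -0.19 to 0.093 for Lhx1, -0.37 to 0.21 for Spry2, -0.080 to 0.13 for Myc, -0.27 to 0.0012 for Pcna, -0.36 to 0.26 for Rrm2, -0.027 to 0.14 for Kit, -0.13 to 0.35 for Neurog3, -0.051 to 0.27 for Sohlh1, -0.11 to 0.22 for Sox2 and -0.27 to 0.097 for Zbtb16. The cause was not tested. With 3 arrays per group, genes near background can be read only roughly.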

Other observations

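Probe design differed between the genes on either side. Of the 236 genes lower at 8 h at an unadjusted p under 0.01, 23 (9.75%) were represented by a probe set marked as able to cross-hybridise with other genes, against 9 of the 317 higher genes (2.84%) and 3.89% of all genes tested. Probe sets marked as shared by several transcripts stood for 25 of the lower genes (10.6%). They stood for 5 of the higher genes (1.58%) and 5.91% of all genes tested. Of the lower genes, 148 had another probe set above background, and the brightest of these had the same sign in 88, with a median log2 difference of -0.07, against -0.52 for the probe set used. Of the higher genes, 109 had another, with the same sign in 71 and medians of 0.12 and 0.59. The probe set used had chosen the genes, so its median is the larger by construction. Pim3, Rhebl1, Hsd17b7, Crispld2, Odc1 and Socs3 were among the lower genes read by a probe set marked as able to cross-hybridise.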
